A study of Danio rerio with 16 samples.

Results

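Mock-injected zebrafish embryos, which had received only the injection vehicle in the yolk, were compared between 3 and 1 days post injection (dpi). The comparison uses 4 of the 16 RNA-seq libraries of the series, mock_3dpi A and B and mock_1dpi A and B, which were taken by their titles. The comparison and the gene lists below were chosen with earlier results of these data known. All embryos were wildtype. Mock embryos were injected at 2 days post fertilization (dpf) with 1 nl of polyvinylpyrrolidone (PVP) and frozen at 5 dpf (3 dpi) or 3 dpf (1 dpi). Particle embryos received 1 nl of 5 mg/ml red fluorescent polystyrene beads of 700 nm in PVP, and control embryos were not injected. Both of these groups have 3 libraries, A to C, at each of the same ages, and their values stand beside those of the mock embryos. RNA came from pools of whole animals, 10 per treatment group. The replicates are labelled as biological, and the labels do not say whether they came from separate clutches, so p-values measure the spread between these pools. Age and time since injection move together in every group and cannot be told apart.

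Between these ages a zebrafish embryo becomes a swimming larva. It uses up its yolk, its liver, pancreas and gut come into function, its head skeleton and fins grow, and its eyes and brain begin to drive visual behaviour. A light-entrained molecular clock, in which Per and Cry proteins and the Rev-erb receptors repress their own activators, runs in most of its tissues. Whole-animal RNA averages all of these organs, so that fewer cells of a type and less RNA per cell cannot be told apart.

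The mock libraries held 13244062 (mock_3dpi A), 8679739 (mock_3dpi B), 13372934 (mock_1dpi A) and 12514570 (mock_1dpi B) counted reads, and the whole series ran from 8679739 to 19840148. Markers of muscle, lens, red cells, liver, exocrine pancreas, neurons, retina, skin, macrophages and neutrophils were all detected in each mock library. The macrophage gene mpeg1.1, for example, stood between 0.98 and 4.36 CPM (read counts scaled to a common library size with TMM factors, which correct for reads taken up by few abundant genes) over the 4 libraries. Mock_3dpi A stood apart from the other libraries in its makeup. Its 100 most abundant genes took 38.8% of the reads, against 32% in mock_3dpi B and 19.9% to 31.4% in the other 14 libraries, and its TMM factor was 0.694, against 0.886 in mock_3dpi B and 0.937 to 1.11 elsewhere. Libraries A and B differed with an SD of log2 ratios over all genes of 0.807 in 3 dpi mock embryos, 0.429 in 1 dpi mock embryos and 0.525 to 0.573 in the other groups. Values without single mock libraries therefore stand beside the results. All mock libraries belong to the library series of A and B, and the headers of the C libraries name another one.

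Of 23623 genes tested with edgeR's quasi-likelihood test, with the spread estimated over all 16 libraries, 5578 (23.6%) were called at an adjusted p under 0.05 in mock embryos, and of all genes 2627 rose (11.1%) and 2951 fell (12.5%) at 3 dpi. Over the same 2 days 280 genes rose and 48 fell in control embryos (1.39% in either direction), and 369 rose and 120 fell in particle embryos (2.07%). Of the 328 genes called in control embryos 258 were called in the same direction in mock embryos, and of the 489 called in particle embryos 347 were. The log2 values (3 dpi over 1 dpi) of all genes had an SD of 1.04 in mock, 0.659 in control and 0.653 in particle embryos, around medians near 0. Mock values rest on 2 libraries a side and those of the other groups on 3, and the part of library spread in these SDs was not tested. In the direct test of a difference in change, 0 genes passed for mock minus control and 1 for mock minus particle. Some other fits called more, as given below. Both 3 dpi mock libraries lay above both 1 dpi libraries for 33.5% of all genes and below both for 34.8%. The split between rises and falls depends on the scaling. With library totals in place of TMM factors 835 genes rose and 5835 fell, and the median log2 value of all genes was −0.45, against −0.01 with TMM. The number of calls also depends on single libraries. It was 752 higher and 944 lower without mock_3dpi A, 731 and 1093 without mock_1dpi A, 951 and 1375 without mock_1dpi B, and 2745 and 3223 without mock_3dpi B. In each of these fits all 5578 genes called with every library kept the sign of their log2 value. These genes were called on the same libraries, so a kept sign is no separate support for the calls. List counts without 1 mock library, given below, belong beside the counts of all genes in the same fit. They do not belong beside the shares of 11.1% and 12.5%.

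**Figure D1:**
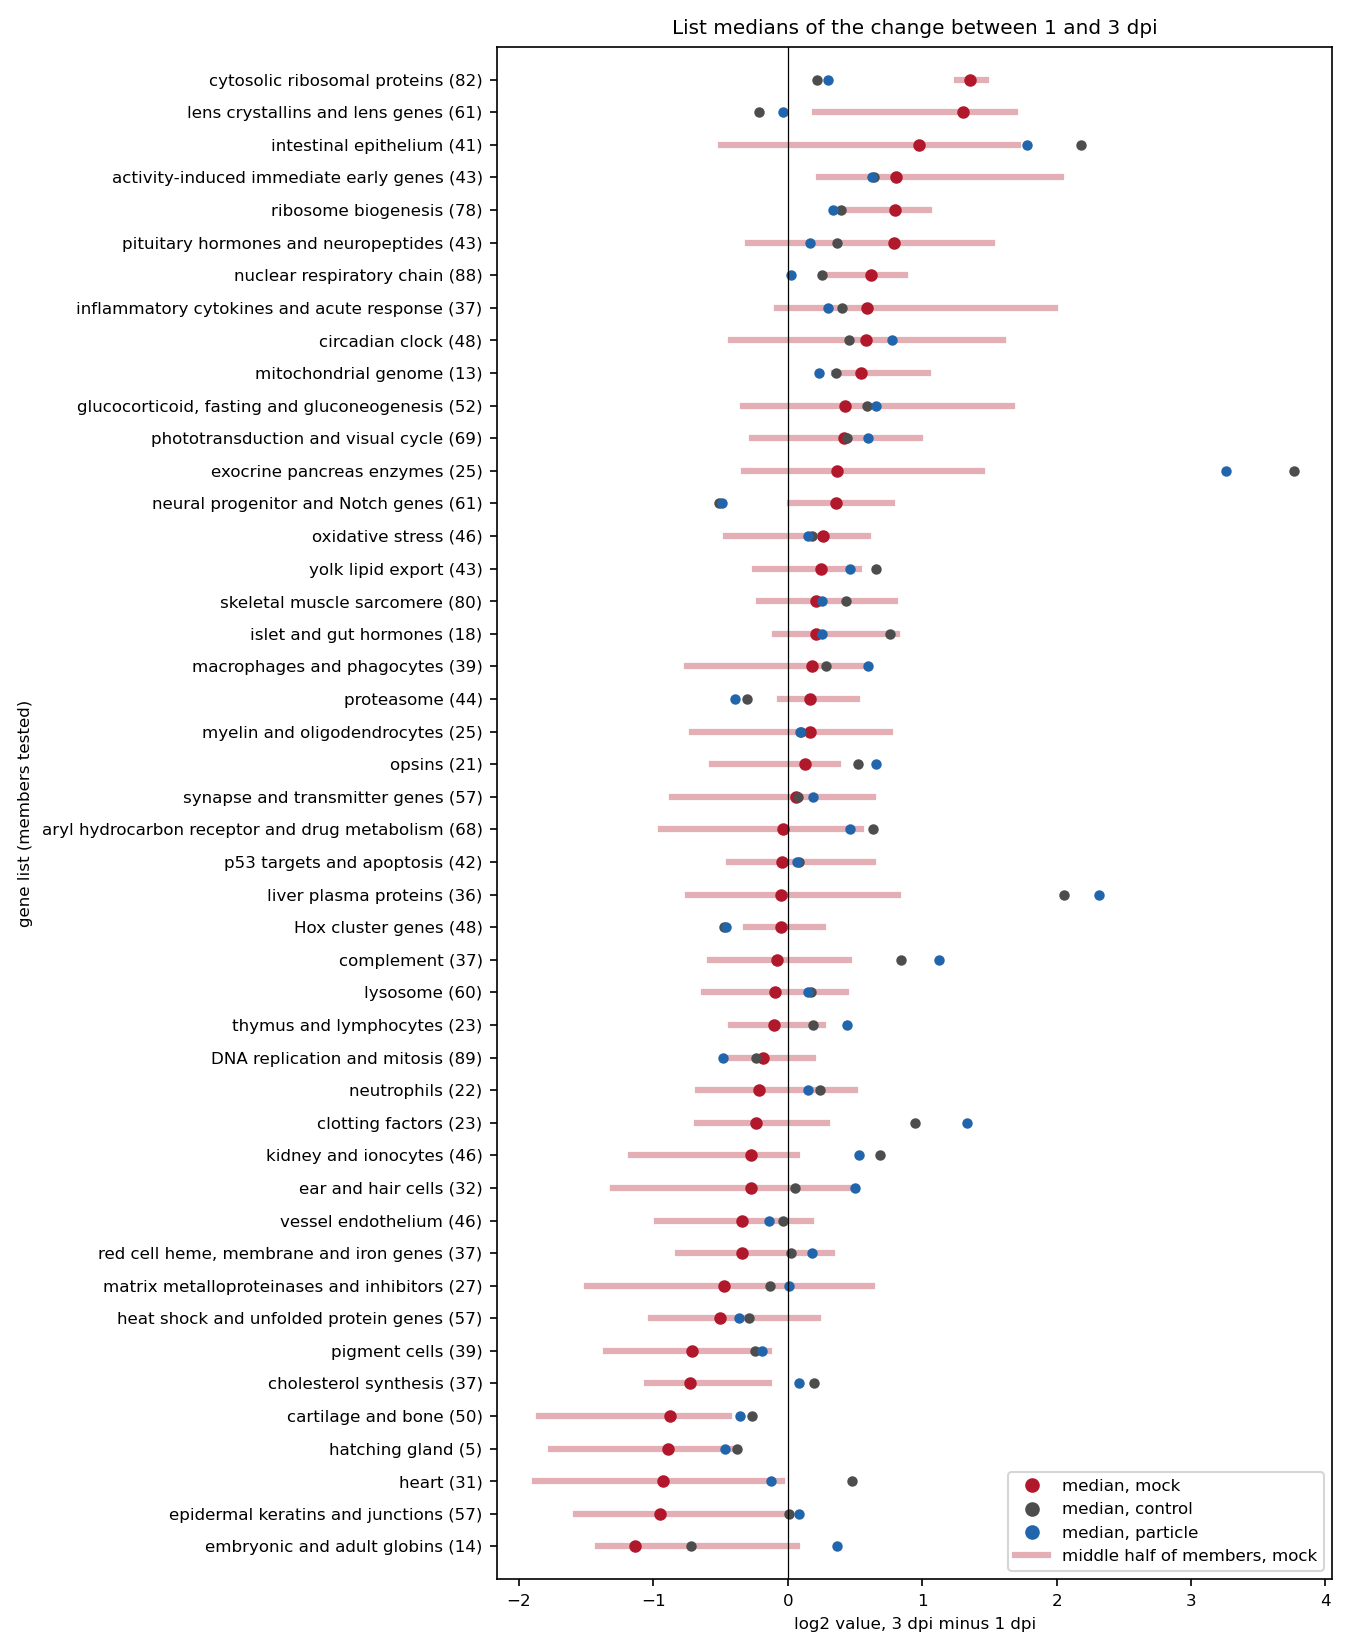
Median log2 value, 3 dpi minus 1 dpi, over the tested members of 46 gene lists, for mock (red), control (grey) and particle (blue) embryos; the red bar runs between the lower and the upper quartile of the members in mock embryos, and the number of members tested is in parentheses. Ribosomal protein and lens genes lie at 1.36 and 1.305 in mock embryos, against 0.22 and −0.22 in controls, while exocrine pancreas and liver plasma protein lists lie at 0.36 and −0.05, against 3.77 and 2.06. No member of these lists was called in the edgeR tests of a difference in change between groups. In control embryos 0 pancreas members and 1 liver member were called.

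The 10 largest rises among called genes with at least 5 CPM and no overlap between the mock groups were clock genes, activity-induced genes, genes known from muscle and fuel use, and a chemokine gene. The muscle phosphatase regulator ppp1r27b (ENSDARG00000100504, chromosome 6) had 33 CPM in mock_3dpi A and 19.4 in mock_3dpi B, against 0.622 in mock_1dpi A and 0.226 in mock_1dpi B. For ppp1r27b this was a change of 5.90 on the log2 scale (SE 1.11, adjusted p = 0.00313). The activity-induced transcription factor gene EGR4 (ENSDARG00000077799, chromosome 23) had 109 CPM in mock_3dpi A and 73.8 in mock_3dpi B, against 1.73 in mock_1dpi A and 2.33 in mock_1dpi B. For EGR4 this was a change of 5.49 on the log2 scale (SE 0.35, adjusted p = 7.88e-06). Both were low in each 1 dpi library and higher in each 3 dpi library. The absence of overlap was a condition for naming them here and is no separate result. The clock repressor nr1d1, encoding Rev-erb alpha, had 270.5 and 248 CPM in 3 dpi mock libraries A and B, against 6.97 and 7.6 at 1 dpi. For nr1d1 this was a change of 5.15 on the log2 scale (SE 0.82, adjusted p = 0.00154). The muscle ubiquitin ligase gene fbxo32, also called atrogin-1 and known from muscle wasting, had 80.6 and 45.6 CPM in 3 dpi mock libraries A and B, against 1.8 and 1.96 at 1 dpi. For fbxo32 this was a change of 5.07 on the log2 scale (SE 1.201, adjusted p = 0.00972). The activity-induced factor npas4a had 154 and 159 CPM in 3 dpi mock libraries A and B, against 5.04 and 5.12 at 1 dpi, a change of 4.94 on the log2 scale (SE 0.41, adjusted p = 3.29e-05), and its 3 dpi libraries lay close together. The pyruvate dehydrogenase kinase gene pdk2b, whose enzyme holds glucose carbon back from the citric acid cycle, had 499.6 and 311 CPM in 3 dpi mock libraries A and B, against 19 and 15.7 at 1 dpi. For pdk2b this was a change of 4.55 on the log2 scale (SE 1.05, adjusted p = 0.0086). The remaining members were per1a with a log2 value of 4.43, calcoco1b, related to autophagy receptors, with 4.35, the chemokine gene ccl19b with 4.32 and the kelch family gene klhl38b with 4.28. For ccl19b the 3 dpi libraries lay far apart, with 5.33 and 51.2 CPM in 3 dpi mock libraries A and B, against 1.66 and 1.13 at 1 dpi. Control and particle embryos moved in the same direction in all 10, with log2 values of 5.14 in control and 4.60 in particle embryos for ppp1r27b and of 1.68 in control and 1.42 in particle embryos for ccl19b. The calls of 4 of these genes rested on single libraries. The call of ccl19b ended without mock_3dpi B (adjusted p = 0.099), without mock_1dpi A (adjusted p = 0.0538) and without mock_1dpi B (adjusted p = 0.0616). The call of pdk2b ended without mock_1dpi A (adjusted p = 0.0728) and without mock_1dpi B (adjusted p = 0.0736). The call of fbxo32 ended without mock_3dpi A (adjusted p = 0.0554), without mock_1dpi A (adjusted p = 0.087) and without mock_1dpi B (adjusted p = 0.0726). The call of klhl38b ended without mock_3dpi A (adjusted p = 0.128), without mock_3dpi B (adjusted p = 0.0595), without mock_1dpi A (adjusted p = 0.153), without mock_1dpi B (adjusted p = 0.193), without control_3dpi A (adjusted p = 0.0508), without particle_1dpi B (adjusted p = 0.0503) and without particle_3dpi B (adjusted p = 0.0526). The log2 value of ccl19b was 1.92 without mock_3dpi B.

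Among the 10 largest falls were genes of the matrix around notochord and cartilage and of surface tissues. The notochord sheath gene emilin3a (ENSDARG00000078052, chromosome 8) had 0 CPM in mock_3dpi A and 0.13 in mock_3dpi B, against 6.15 in mock_1dpi A and 5.57 in mock_1dpi B. For emilin3a this was a change of −6.41 on the log2 scale (SE 0.97, adjusted p = 0.0012). Its size is uncertain, as mock_3dpi A had 0 reads and mock_3dpi B few, and it depends on the prior count. Over the alternative fits the log2 value of emilin3a ran from −9.378 to −5.395. Collagen X, made by maturing cartilage and bone cells, is encoded by col10a1a (ENSDARG00000054753, chromosome 17), which had 1.52 CPM in mock_3dpi A and 0.521 in mock_3dpi B, against 59.7 in mock_1dpi A and 29.6 in mock_1dpi B. For col10a1a this was a change of −5.40 on the log2 scale (SE 1.13, adjusted p = 0.00541). The fast myosin heavy chain gene myhb had 2.5 and 5.6 CPM in 3 dpi mock libraries A and B, against 103 and 108 at 1 dpi. For myhb this was a change of −4.72 on the log2 scale (SE 1.12, adjusted p = 0.00982). These 3 genes were also lower at 3 dpi in the other groups, by log2 values of −2.79 in control and −2.29 in particle embryos for emilin3a and of −1.78 in control and −1.70 in particle embryos for myhb, of which the one of emilin3a in particle embryos passed the test (adjusted p = 0.0465). At 1 dpi control libraries held less of emilin3a than mock libraries, 0.62 to 1.32 CPM, and at 3 dpi they held 0 to 0.24 CPM. Particle embryos held 2.64 CPM of emilin3a on average at 1 dpi and 0.538 at 3 dpi. For col10a1a control means were 10.6 CPM at 1 dpi and 4.11 CPM at 3 dpi. The G protein alpha subunit gene gna15.1 had 0.544 and 0.391 CPM in 3 dpi mock libraries A and B, against 12.8 and 7.22 at 1 dpi. For gna15.1 this was a change of −4.38 on the log2 scale (SE 0.80, adjusted p = 0.00276). The peptidase gene lmln, related to leishmanolysin, had 0.327 and 0.391 CPM in 3 dpi mock libraries A and B, against 5.46 and 4.89 at 1 dpi, a change of −3.83 on the log2 scale (SE 0.34, adjusted p = 6.66e-05), the smallest p among these 10. The other falls were fam83ha (−4.36), ponzr3 (−4.14), the fibrocystin-like gene pkhd1l1 (−3.82), the insulin-like growth factor binding protein gene igfbp5a (−3.75) and the protocadherin gene pcdhb (−3.71). Of these, igfbp5a had 0 and 0.911 CPM in 3 dpi mock libraries A and B, against 5.94 and 5.79 at 1 dpi. The call of myhb ended without mock_3dpi A (adjusted p = 0.111). The call of fam83ha ended without mock_3dpi A (adjusted p = 0.0787). The call of ponzr3 ended without mock_3dpi A (adjusted p = 0.0657). The call of igfbp5a ended without mock_3dpi A (adjusted p = 0.197), without mock_1dpi A (adjusted p = 0.0867) and without mock_1dpi B (adjusted p = 0.0737). For igfbp5a the log2 value was −9.38 without mock_3dpi B. That value rests on a 3 dpi library with 0 reads and depends on the prior count. The calls of the other 6 falls held without each mock library.

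Clock genes had some of the smallest p-values. Of 48 tested clock genes 17 rose and 4 fell (median log2 value 0.58, against 0.45 in control and 0.78 in particle embryos). Over all genes 11.1% rose and 12.5% fell in mock embryos. In either direction 1.39% of all genes were called in control and 2.07% in particle embryos. The period gene per1a (ENSDARG00000056885, chromosome 10), whose protein represses the clock's activators, had 69.8 CPM in mock_3dpi A and 89.8 in mock_3dpi B, against 3.31 in mock_1dpi A and 4.06 in mock_1dpi B. For per1a this was a change of 4.43 on the log2 scale (SE 0.33, adjusted p = 1.4e-05). The D-box activator dbpb had 159 CPM in mock_3dpi A and 142 in mock_3dpi B, against 8.91 in mock_1dpi A and 9.7 in mock_1dpi B. For dbpb this was a change of 4.02 on the log2 scale (SE 0.30, adjusted p = 1.4e-05). The repressor bhlhe40 had 522 and 382 CPM in 3 dpi mock libraries A and B, against 51.9 and 43.4 at 1 dpi, a change of 3.25 on the log2 scale (SE 0.30, adjusted p = 8.56e-05), and the Rev-erb beta gene nr1d2b had 366 and 336 CPM in 3 dpi mock libraries A and B, against 86.5 and 77.9 at 1 dpi. For nr1d2b this was a change of 2.09 on the log2 scale (SE 0.22, adjusted p = 0.000166). In all 4 the libraries of one time lay close together and far from those of the other. The 4 were taken for the smallest p of the list, which makes this likely beforehand. These 4 genes were also called without injection and with particles. The log2 values were 4.61 in control and 3.66 in particle embryos for per1a, 3.51 in control and 3.07 in particle embryos for dbpb and 2.67 in control and 2.72 in particle embryos for bhlhe40, and the list had 15 rises and 2 falls in control embryos and 19 and 1 in particle embryos. The count of rises in mock embryos was 13 without mock_3dpi A, 15 without mock_3dpi B, 11 without mock_1dpi A and 13 without mock_1dpi B, and that of falls 0 without mock_3dpi A, 7 without mock_3dpi B, 1 without mock_1dpi A and 2 without mock_1dpi B. The labels do not give the hour of day at which embryos were frozen.

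Genes induced within minutes by neuronal activity or growth factors had more rises than falls. Of 43 activity-induced immediate early genes 20 rose and 2 fell (median log2 value 0.80, against 0.64 in control and 0.63 in particle embryos). The shares over all genes were 11.1% for rises and 12.5% for falls in mock embryos. In either direction they were 1.39% in control and 2.07% in particle embryos. The AP-1 subunit gene fosab (ENSDARG00000031683, chromosome 20) had 114 CPM in mock_3dpi A and 100.4 in mock_3dpi B, against 4.49 in mock_1dpi A and 4.36 in mock_1dpi B. For fosab this was a change of 4.60 on the log2 scale (SE 0.38, adjusted p = 3.22e-05). The zinc finger gene egr1 had 255 and 293 CPM in 3 dpi mock libraries A and B, against 45.2 and 43.9 at 1 dpi. For egr1 this was a change of 2.62 on the log2 scale (SE 0.32, adjusted p = 0.000395). In the activity list rises and falls numbered 14 and 1 without mock_3dpi A or mock_1dpi A, 20 and 2 without mock_3dpi B and 12 and 2 without mock_1dpi B. In controls 13 members rose, and in particle embryos 9. For npas4a the log2 values were 4.74 in control and 2.56 in particle embryos, and for EGR4 3.31 in control and 2.11 in particle embryos. The lower value of EGR4 with particles came with a higher level at 1 dpi, 9.14 ± 1.5 CPM (SD, n = 3), against 1.73 and 2.33 CPM in the 1 dpi mock libraries. It also came with a lower level at 3 dpi, 39.5 CPM on average, against 109 and 73.8 CPM in 3 dpi mock libraries A and B. Control embryos held 40.2 CPM on average at 3 dpi.

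**Figure D2:**
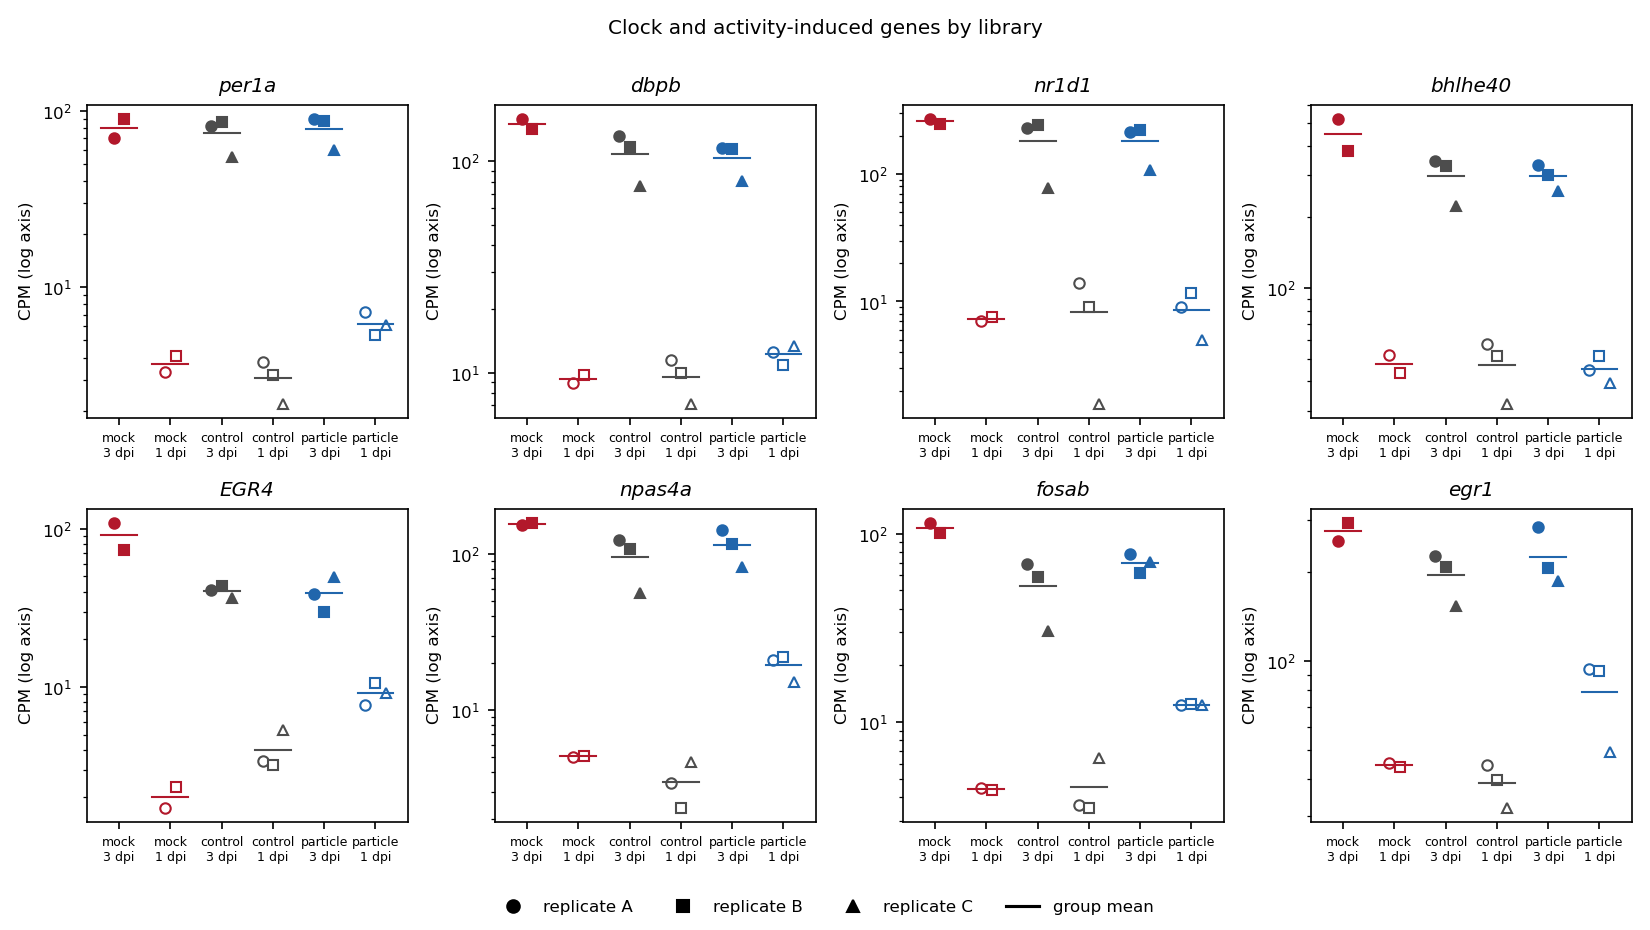
CPM on a log axis in every library for 4 clock genes (top) and 4 activity-induced genes (bottom), with 3 dpi (filled) left of 1 dpi (open) in mock, control and particle embryos; each point is a library and each line a group mean. In all 8 genes both 3 dpi mock libraries lie above both 1 dpi mock libraries, for per1a at 69.8 and 89.8 CPM, against 3.31 and 4.06 CPM. The 8 genes are called rises, for which this is likely beforehand.

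Of 52 glucocorticoid, fasting and gluconeogenesis genes 13 rose and 5 fell (median log2 value 0.43, against 0.59 in control and 0.65 in particle embryos). Over all genes 11.1% rose and 12.5% fell. Beside the rises of per1a, pdk2b and fbxo32, the called members of this list with the smallest p were falls of nutrient carriers and of a further kinase. The glucose carrier gene slc2a1b (ENSDARG00000007412, chromosome 6) had 1.31 CPM in mock_3dpi A and 1.82 in mock_3dpi B, against 13 in mock_1dpi A and 8.2 in mock_1dpi B. For slc2a1b this was a change of −2.76 on the log2 scale (SE 0.38, adjusted p = 0.000805). The large neutral amino acid carrier gene slc7a5 had 1.2 and 4.3 CPM in 3 dpi mock libraries A and B, against 19.6 and 19.3 at 1 dpi. For slc7a5 this was a change of −2.85 on the log2 scale (SE 0.48, adjusted p = 0.00193). The pyruvate dehydrogenase kinase gene pdk3a had 2.07 and 3.38 CPM in 3 dpi mock libraries A and B, against 8.49 and 9.33 at 1 dpi. For pdk3a this was a change of −1.72 on the log2 scale (SE 0.34, adjusted p = 0.00429). The log2 values of slc2a1b were −0.22 in control and −0.26 in particle embryos and those of slc7a5 were −0.44 in control and −0.38 in particle embryos, and none of these 4 passed the test. The call of pdk3a ended without mock_3dpi A (adjusted p = 0.0598). In the glucocorticoid and fasting list rises and falls numbered 3 and 2 without mock_3dpi A, 9 and 6 without mock_3dpi B, 1 and 3 without mock_1dpi A and 1 and 4 without mock_1dpi B.

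Nearly all genes of the cytosolic ribosome were called higher with all libraries and TMM factors in the fit. Of 82 ribosomal protein genes 80 rose and 0 fell, while 11.1% of all genes rose and 12.5% fell. When library totals replaced TMM factors, 52 of the 82 rose and 0 fell, with a median log2 value of 0.86. Both 3 dpi libraries lay above both 1 dpi libraries for all 82, against 33.5% of all genes. Their summed level was 123416 CPM in mock_3dpi A and 65078 CPM in mock_3dpi B, against 35518 CPM in mock_1dpi A and 40852 CPM in mock_1dpi B. The median log2 value was 1.36, against 0.22 in control and 0.30 in particle embryos, where 0 members were called. In the edgeR tests of a difference in change, mock minus control and mock minus particle, 0 members were called as well. The large subunit gene rpl26 (ENSDARG00000102317, chromosome 14) had 1824 CPM in mock_3dpi A and 1073 in mock_3dpi B, against 451 in mock_1dpi A and 531 in mock_1dpi B. For rpl26 this was a change of 1.56 on the log2 scale (SE 0.28, adjusted p = 0.00263). The small subunit gene rps26l had 806 and 428 CPM in 3 dpi mock libraries A and B, against 199 and 217 at 1 dpi, a change of 1.57 on the log2 scale (SE 0.29, adjusted p = 0.00294), and rpl35a had 1064 and 610.3 CPM in 3 dpi mock libraries A and B, against 265 and 321 at 1 dpi. For rpl35a this was a change of 1.51 on the log2 scale (SE 0.28, adjusted p = 0.00298). The abundant members rplp0, of the ribosomal stalk, and rpsa, of the small subunit, had log2 values of 1.28 and 1.12. Every one of these genes was highest in mock_3dpi A, the library with the largest share of reads in few genes, and 8.56% of its reads fell on ribosomal protein genes, against 5.76% in mock_3dpi B. The part of that library's makeup in the result was not tested. The median over members against the 1 dpi mean was 1.74 for mock_3dpi A and 0.81 for mock_3dpi B. The median log2 value was 0.80 without mock_3dpi A, 1.73 without mock_3dpi B, 1.25 without mock_1dpi A and 1.44 without mock_1dpi B. Fewer members were called without mock_3dpi A, mock_1dpi A or mock_1dpi B, as were fewer of all genes. The call of rplp0 ended without mock_3dpi A (adjusted p = 0.101) and without mock_1dpi A (adjusted p = 0.0652). The call of rpsa ended without mock_3dpi A (adjusted p = 0.301), without mock_1dpi A (adjusted p = 0.139) and without mock_1dpi B (adjusted p = 0.0835). For rps26l the log2 value was 1.03 without mock_3dpi A. For rplp0 the log2 value was 0.81 without mock_3dpi A. For rpsa the log2 value was 0.54 without mock_3dpi A.

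Calls among ribosome biogenesis genes of the nucleolus were all rises with TMM factors. Of 78 members 41 rose and 0 fell (median log2 value 0.80, against 0.39 in control and 0.34 in particle embryos). When library totals replaced TMM factors, 15 of the 78 rose and 1 fell, with a median of 0.35. Over all genes 11.1% rose and 12.5% fell. The small subunit assembly factor gene pno1 (ENSDARG00000008502, chromosome 13) had 165 CPM in mock_3dpi A and 88.3 in mock_3dpi B, against 35.4 in mock_1dpi A and 29.6 in mock_1dpi B. For pno1 this was a change of 1.96 on the log2 scale (SE 0.29, adjusted p = 0.00112). The RNA helicase gene ddx21 had 372 and 196 CPM in 3 dpi mock libraries A and B, against 63 and 58.4 at 1 dpi. For ddx21 this was a change of 2.23 on the log2 scale (SE 0.39, adjusted p = 0.00237). The helicase gene ddx47 and the GTPase gene gnl3l had log2 values of 1.44 and 1.15. For pno1 and ddx21 the change was also called in control embryos, with log2 values of 1.02 and 1.56, and in particle embryos, with 1.03 and 1.83. In the ribosome biogenesis list rises and falls numbered 12 and 0 without mock_3dpi A, 45 and 0 without mock_3dpi B, 11 and 0 without mock_1dpi A and 16 and 0 without mock_1dpi B.

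Of 88 nuclear genes of the respiratory chain 32 rose and 0 fell (median log2 value 0.62, against 0.25 in control and 0.03 in particle embryos). When library totals replaced TMM factors, 5 of the 88 rose and 6 fell, with a median of 0.14. The complex I subunit gene ndufa6 (ENSDARG00000038028, chromosome 3) had 151 CPM in mock_3dpi A and 99.1 in mock_3dpi B, against 44.5 in mock_1dpi A and 52 in mock_1dpi B, a change of 1.38 on the log2 scale (SE 0.24, adjusted p = 0.00227), and its call held without each mock library. The cytochrome oxidase subunit gene cox7c had 206 and 130.3 CPM in 3 dpi mock libraries A and B, against 66.2 and 77.8 at 1 dpi. For cox7c this was a change of 1.22 on the log2 scale (SE 0.26, adjusted p = 0.00604). The call of cox7c ended without mock_3dpi A (adjusted p = 0.0887) and without mock_1dpi A (adjusted p = 0.0675). In the respiratory chain list rises and falls numbered 1 and 0 without mock_3dpi A or mock_1dpi A, 49 and 0 without mock_3dpi B and 8 and 0 without mock_1dpi B. Among the 13 protein genes of the mitochondrial genome 4 rose and 0 fell (median log2 value 0.55, against 0.36 in control and 0.23 in particle embryos). In the mitochondrial list rises and falls numbered 3 and 0 without mock_3dpi A, mock_1dpi A or mock_1dpi B and 4 and 1 without mock_3dpi B. The cytochrome oxidase subunit gene mt-co3 had 14630 and 10870 CPM in 3 dpi mock libraries A and B, against 4977 and 4880 at 1 dpi, a change of 1.37 on the log2 scale (SE 0.25, adjusted p = 0.00281), and mt-co2 had a log2 value of 1.32. The shares of reads on the mitochondrial genome were 5.48% and 6.13% in 3 dpi mock libraries A and B, against 4.28% and 3.84% at 1 dpi. Of 44 proteasome genes 5 rose and 0 fell, with a median log2 value of 0.17 in mock embryos, against −0.30 in control and −0.39 in particle embryos. Rises made up 11.1% and falls 12.5% of all genes. With library totals the proteasome median was −0.31 in mock embryos. In the proteasome list rises and falls numbered 1 and 0 without mock_3dpi A or mock_1dpi A, 8 and 0 without mock_3dpi B and 2 and 0 without mock_1dpi B, and its median turned to −0.13 without mock_3dpi A.

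**Figure D3:**
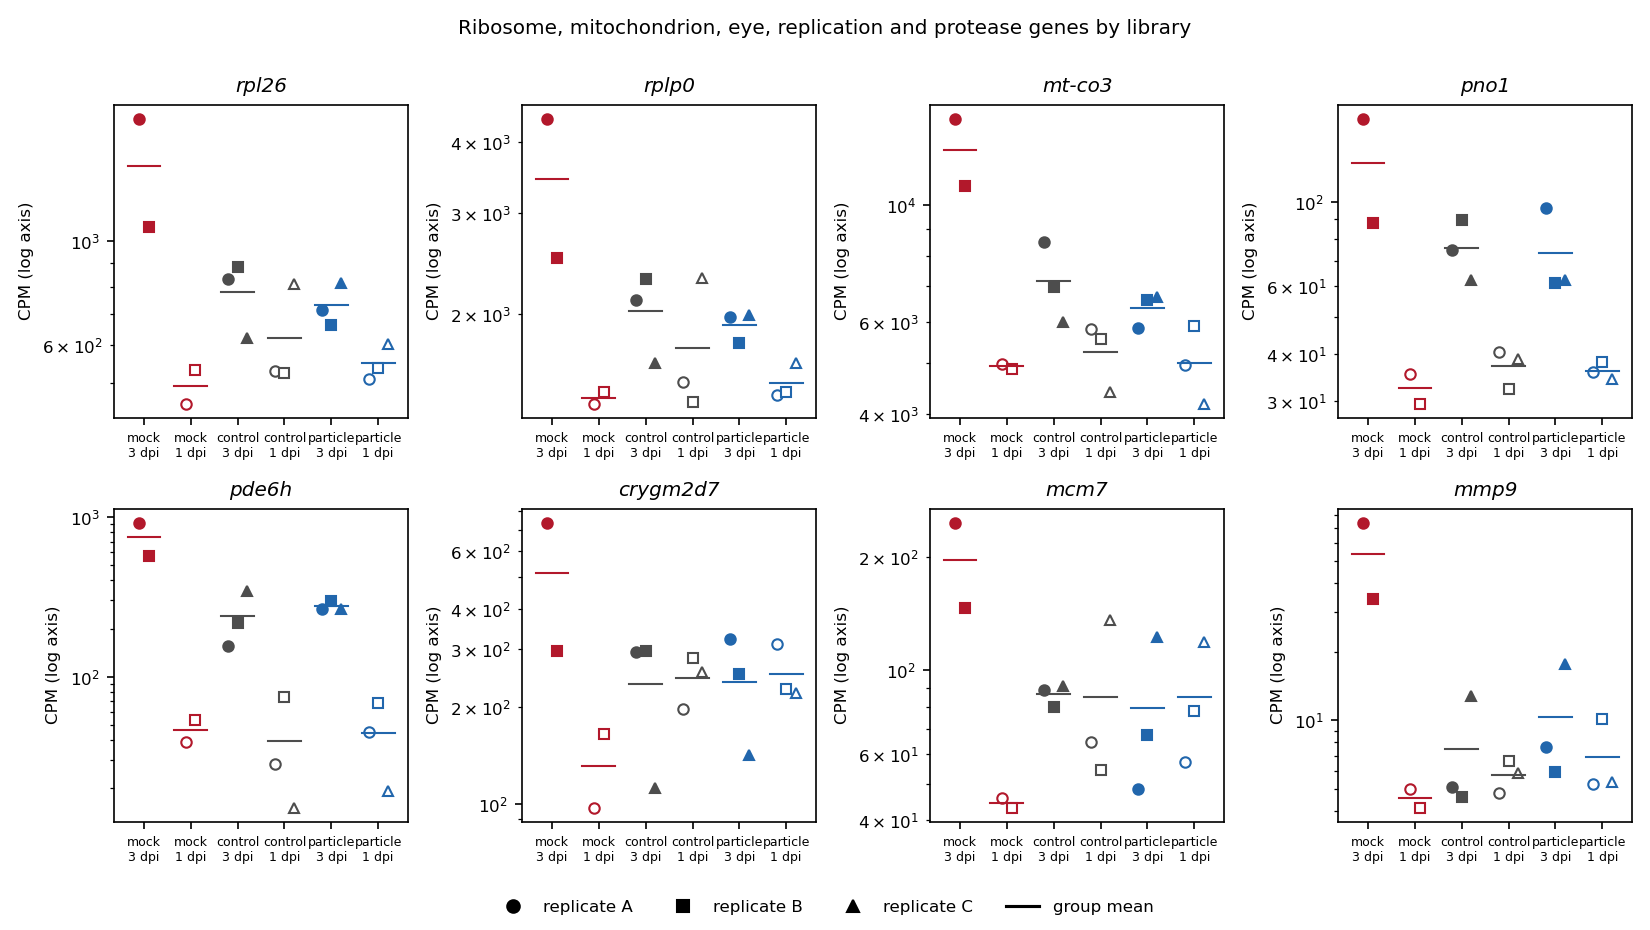
CPM on a log axis in every library for genes called higher at 3 dpi in mock embryos, with 3 dpi (filled) left of 1 dpi (open) in each treatment; each point is a library and each line a group mean. Mock_3dpi A is the highest library of the series for rpl26 with 1824 CPM and for mcm7 with 247 CPM, while in control and particle embryos the levels at both ages lie closer together, as for mcm7 at 86.5 and 85.0 CPM in 3 and 1 dpi controls.

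Of 25 exocrine pancreas enzyme genes 0 were called in mock embryos (median log2 value 0.36, against 3.77 in control and 3.26 in particle embryos), where 23.6% of all genes were called. In control and particle embryos, with 1.39% and 2.07% of all genes called, 0 of these 25 were called as well. Among 36 liver plasma protein genes 1 rose and 1 fell (median log2 value −0.05, against 2.06 in control and 2.32 in particle embryos). In the liver list rises and falls numbered 1 and 1 without mock_3dpi A and 0 and 0 without mock_3dpi B, mock_1dpi A or mock_1dpi B, and its median turned to 0.39 without mock_3dpi A and 0.21 without mock_1dpi B. The liver fatty acid binding protein gene fabp10a (ENSDARG00000038439, chromosome 16) had 82.4 CPM in mock_3dpi A and 198 in mock_3dpi B, against 36.7 in mock_1dpi A and 48.5 in mock_1dpi B, and its log2 value of 1.72 had an adjusted p of 0.418. Control embryos held it at 88.9 ± 107 CPM at 3 dpi, against 2.2 ± 3.2 CPM at 1 dpi, and particle embryos at 241 ± 222 against 11 ± 15.4 CPM (SD, n = 3 each). The 1 dpi mock libraries thus held more of it than any of the 3 control libraries at 1 dpi, whose highest value was 5.89 CPM. The trypsin gene try had 45 and 88 CPM in 3 dpi mock libraries A and B, against 38.2 and 24.6 at 1 dpi, with a log2 value of 1.08 (adjusted p = 0.569). The elastase gene ela2 had 8.06 and 12.5 CPM in 3 dpi mock libraries A and B, against 4.35 and 2.26 at 1 dpi, with 1.62 (adjusted p = 0.534). These non-calls depend on the libraries in the fit. With only the mock libraries, fabp10a had a log2 value of 1.70 (adjusted p = 0.0403) and ela2 of 1.61 (adjusted p = 0.0471). The gene try was not called in that fit either. For ela2 the libraries of the other groups lay far apart at 3 dpi. Control libraries A to C held 1.92, 69.5 and 1.92 CPM, and particle libraries A to C held 142, 14.7 and 3.75 CPM. List medians of control and particle embryos were not taken without single libraries of these groups. For the apolipoprotein gene apoa1b, of the yolk lipid export list, the mock groups overlapped, with 369 and 1204 CPM in 3 dpi mock libraries A and B, against 444 and 493 at 1 dpi. Control libraries A to C held 233, 1471 and 163 CPM of apoa1b at 3 dpi. The retinol carrier gene rbp4 had 288 and 282 CPM in 3 dpi mock libraries A and B, against 402 and 380.5 at 1 dpi, with −0.46 (adjusted p = 0.684). The 3 dpi mock libraries differed in these organs. The median of the liver plasma protein list against the 1 dpi mean was −0.98 for mock_3dpi A and 0.38 for mock_3dpi B, and without mock_3dpi A the list median was 0.39.

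The differences in change between groups for these lists were not called for any member. The median difference of the log2 values, mock minus control, was −2.87 for the pancreas list and −2.14 for the liver list, and mock minus particle it was −2.56 and −2.36. Complement genes, whose products coat microbes and open their membranes, had 1 rise and 0 falls among 37 (median log2 value −0.08, against 0.84 in control and 1.13 in particle embryos). By comparison, 11.1% of all genes rose and 12.5% fell. In the complement list rises and falls numbered 0 and 0 without mock_3dpi A, mock_1dpi A or mock_1dpi B and 1 and 0 without mock_3dpi B, and its median turned to 0.19 without mock_3dpi A and 0.06 without mock_1dpi B. Clotting factor genes had 2 rises and 2 falls among 23 (median log2 value −0.23, against 0.95 in control and 1.34 in particle embryos). In the clotting list rises and falls numbered 0 and 1 without mock_3dpi A, 3 and 2 without mock_3dpi B, 0 and 0 without mock_1dpi A and 0 and 2 without mock_1dpi B, and its median turned to 0.03 without mock_3dpi A. The gene tfpia, for the inhibitor of tissue factor, fell with a change of −0.97 on the log2 scale (SE 0.21, adjusted p = 0.00578), with 11.8 and 9.89 CPM in 3 dpi mock libraries A and B, against 23 and 19.4 at 1 dpi. The protein S gene pros1 rose by 1.23, with 25 and 17.2 CPM in 3 dpi mock libraries A and B, against 8.98 and 9.03 at 1 dpi. The call of tfpia ended without mock_1dpi A (adjusted p = 0.0593). The call of pros1 ended without mock_3dpi A (adjusted p = 0.141), without mock_1dpi A (adjusted p = 0.088) and without mock_1dpi B (adjusted p = 0.0755). Intestinal epithelium genes had 3 rises and 0 falls among 41 (median log2 value 0.97, against 2.18 in control and 1.78 in particle embryos). In the gut epithelium list rises and falls numbered 0 and 0 without mock_3dpi A, mock_1dpi A or mock_1dpi B and 3 and 0 without mock_3dpi B, and its median turned to −0.28 without mock_3dpi B. The gut cathepsin gene ctsl.1 had 337 and 45.2 CPM in 3 dpi mock libraries A and B, against 11.8 and 12 at 1 dpi, a change of 4.01 on the log2 scale (SE 1.23, adjusted p = 0.0309), and the libraries of 3 dpi differed widely. The call of ctsl.1 ended without mock_3dpi A (adjusted p = 0.359), without mock_1dpi A (adjusted p = 0.164) and without mock_1dpi B (adjusted p = 0.152). For ctsl.1 the log2 value was 1.92 without mock_3dpi A. With limma-voom the adjusted p of ctsl.1 was 0.0503. Yolk lipid export genes had 5 rises and 0 falls among 43 (median log2 value 0.25, against 0.65 in control and 0.47 in particle embryos). In the yolk lipid list rises and falls numbered 1 and 1 without mock_3dpi A, 4 and 0 without mock_3dpi B, 2 and 0 without mock_1dpi A and 1 and 0 without mock_1dpi B, and its median turned to −0.21 without mock_3dpi B. The cholesterol exporter gene abca1a had 203 and 183 CPM in 3 dpi mock libraries A and B, against 92.5 and 77.2 at 1 dpi. For abca1a this was a change of 1.19 on the log2 scale (SE 0.27, adjusted p = 0.00792). The call of abca1a ended without mock_3dpi A (adjusted p = 0.0612) and without mock_1dpi B (adjusted p = 0.0729). Of 18 islet and gut hormone genes 4 rose and 2 fell (median log2 value 0.21, against 0.76 in control and 0.26 in particle embryos), among them the peptide YY gene pyya with 26.1 and 18.7 CPM in 3 dpi mock libraries A and B, against 8.49 and 8.05 at 1 dpi. For pyya this was a change of 1.44 on the log2 scale (SE 0.22, adjusted p = 0.00122). In the hormone list rises and falls numbered 2 and 0 without mock_3dpi A, mock_1dpi A or mock_1dpi B and 3 and 2 without mock_3dpi B. None of the 5 tested hatching gland genes was called, with a median of −0.89.

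**Figure D4:**
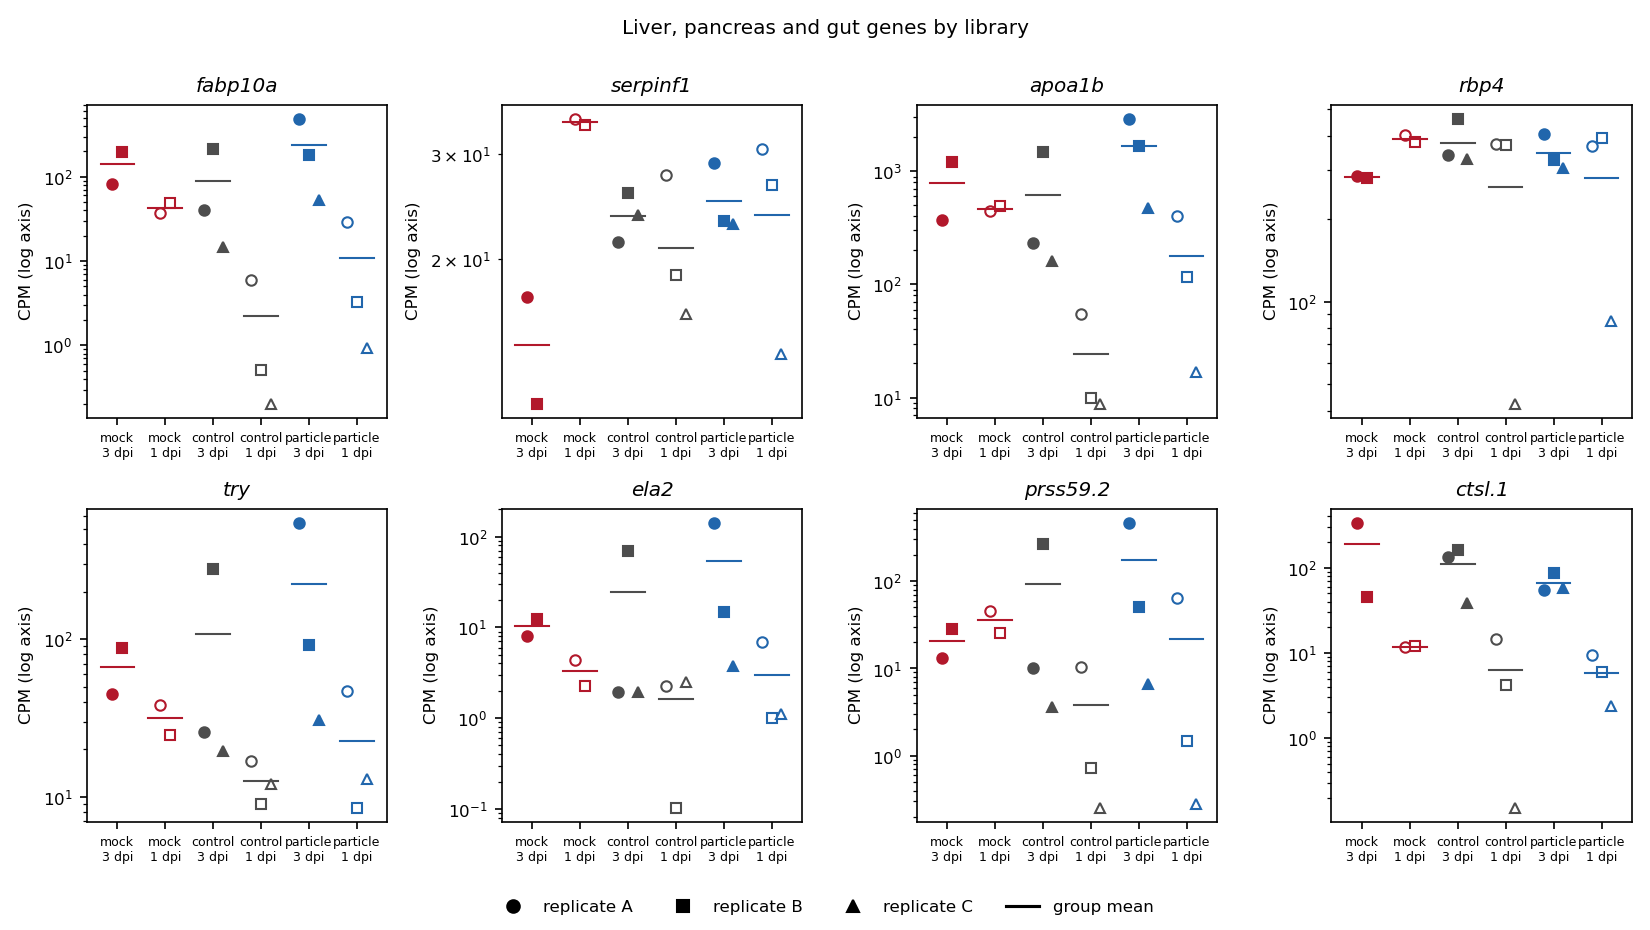
CPM on a log axis in every library for liver (fabp10a, serpinf1, apoa1b, rbp4), exocrine pancreas (try, ela2, prss59.2) and gut (ctsl.1) genes, with 3 dpi (filled) left of 1 dpi (open) in each treatment; each point is a library and each line a group mean. For fabp10a the mock libraries lie at 82.4 and 198 CPM at 3 dpi, against 36.7 and 48.5 CPM at 1 dpi, while control means lie at 88.9 and 2.204 CPM.

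Calls among genes of the skeleton were all falls. Of 50 cartilage and bone genes 0 rose and 21 fell (median log2 value −0.88, against −0.27 in control and −0.35 in particle embryos). Over all genes 11.1% rose and 12.5% fell. Collagens XI and IX and aggrecan make up the matrix of cartilage. The collagen XI gene col11a1b (ENSDARG00000009014, chromosome 2) had 42.5 CPM in mock_3dpi A and 36.5 in mock_3dpi B, against 143 in mock_1dpi A and 129 in mock_1dpi B. For col11a1b this was a change of −1.79 on the log2 scale (SE 0.21, adjusted p = 0.000367). The aggrecan gene acana had 2.61 and 2.08 CPM in 3 dpi mock libraries A and B, against 15.6 and 13.8 at 1 dpi, a change of −2.64 on the log2 scale (SE 0.32, adjusted p = 0.000408), and the collagen IX gene col9a1a had 14.5 and 7.55 CPM in 3 dpi mock libraries A and B, against 67.9 and 77.6 at 1 dpi. For col9a1a this was a change of −2.71 on the log2 scale (SE 0.34, adjusted p = 0.000474). The second collagen XI gene, col11a1a, had a log2 value of −1.40. The groups did not overlap in any of the 4, and their calls held without each mock library. The 4 were taken for the smallest p of the list, which makes both likely beforehand. Both 3 dpi libraries lay below both 1 dpi libraries for 34.8% of all genes. None of the 4 was called in control or particle embryos, where acana had log2 values of −0.89 in control and −0.96 in particle embryos. No member of the list was called in the edgeR tests of a difference in change between groups. The value of col11a1b lay near the threshold, with a difference, mock minus control, of −1.61 (SE 0.26, adjusted p = 0.0516). The summed level of the list was 4980 and 4077 CPM in 3 dpi mock libraries A and B, against 7807 and 8418 CPM at 1 dpi. In the cartilage and bone list rises and falls numbered 0 and 14 without mock_3dpi A or mock_1dpi B, 1 and 16 without mock_3dpi B and 0 and 15 without mock_1dpi A. Of 27 matrix metalloproteinase and inhibitor genes, whose products cut matrix proteins or block that, 4 rose and 11 fell (median log2 value −0.48, against −0.14 in control and 0.01 in particle embryos). In the metalloproteinase list rises and falls numbered 1 and 5 without mock_3dpi A or mock_1dpi A, 4 and 8 without mock_3dpi B and 2 and 6 without mock_1dpi B. They moved in opposite directions, with the gelatinase gene mmp9 at 73.6 and 34 CPM in 3 dpi mock libraries A and B, against 4.97 and 4.14 at 1 dpi, a change of 3.56 on the log2 scale (SE 0.61, adjusted p = 0.0022), and the gelatinase gene mmp2 at 27.8 and 20.7 CPM in 3 dpi mock libraries A and B, against 102 and 90.7 at 1 dpi. For mmp2 this was a change of −1.99 on the log2 scale (SE 0.37, adjusted p = 0.00305). For mmp9 the log2 values were 0.41 in control and 0.60 in particle embryos.

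Calls among skin genes were falls, with 1 exception. Of 57 epidermal keratin and junction genes 1 rose and 23 fell (median log2 value −0.95, against 0.01 in control and 0.09 in particle embryos). The shares over all genes were 11.1% for rises and 12.5% for falls. The surface antigen gene lye had 10.8 and 10.0 CPM in 3 dpi mock libraries A and B, against 39.1 and 27.7 at 1 dpi. For lye this was a change of −1.68 on the log2 scale (SE 0.30, adjusted p = 0.00252). The matrix protein gene postnb (periostin) had 211 and 248 CPM in 3 dpi mock libraries A and B, against 589 and 574 at 1 dpi, a change of −1.34 on the log2 scale (SE 0.25, adjusted p = 0.00317), and the junction protein gene jupa (plakoglobin) had 62.7 and 56.8 CPM in 3 dpi mock libraries A and B, against 147 and 121 at 1 dpi. For jupa this was a change of −1.17 on the log2 scale (SE 0.24, adjusted p = 0.00454). The cornified envelope gene evpla had a log2 value of −2.39. The abundant keratin gene krt4 had 4130 and 3440 CPM in 3 dpi mock libraries A and B, against 5470 and 5269 at 1 dpi, with −0.50 (adjusted p = 0.316). The summed level of the list was 25587 and 20110 CPM in 3 dpi mock libraries A and B, against 23623 and 22298 CPM at 1 dpi, and the libraries of both times overlapped in this sum. In the skin list rises and falls numbered 0 and 11 without mock_3dpi A, 2 and 14 without mock_3dpi B, 0 and 5 without mock_1dpi A and 0 and 15 without mock_1dpi B. The call of evpla ended without mock_3dpi A (adjusted p = 0.0652).

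Of 39 pigment cell genes 2 rose and 12 fell (median log2 value −0.72, against −0.24 in control and −0.19 in particle embryos). Tyrosinase, the first enzyme of melanin synthesis, is encoded by tyr (ENSDARG00000039077, chromosome 15), which had 1.42 and 1.43 CPM in 3 dpi mock libraries A and B, against 9.74 and 10.5 at 1 dpi. For tyr this was a change of −2.82 on the log2 scale (SE 0.41, adjusted p = 0.000986). The homeobox gene alx4a had 5.66 and 3.65 CPM in 3 dpi mock libraries A and B, against 22.4 and 18.8 at 1 dpi, a change of −2.14 on the log2 scale (SE 0.27, adjusted p = 0.000474), and the endothelin receptor gene ednrba had a log2 value of −2.87. In the pigment list rises and falls numbered 2 and 9 without mock_3dpi A, 2 and 11 without mock_3dpi B, 1 and 6 without mock_1dpi A and 2 and 7 without mock_1dpi B. Of 46 vessel endothelium genes 1 rose and 12 fell (median log2 value −0.34, against −0.04 in control and −0.14 in particle embryos), among them the endothelial transcription factor gene fli1a with 9.8 and 9.89 CPM in 3 dpi mock libraries A and B, against 24.8 and 20.8 at 1 dpi, a change of −1.21 on the log2 scale (SE 0.23, adjusted p = 0.00366), and the monocarboxylate carrier gene slc16a1 with a change of −2.33 on the log2 scale (SE 0.35, adjusted p = 0.0012). In the vessel list rises and falls numbered 0 and 5 without mock_3dpi A, 1 and 8 without mock_3dpi B and 0 and 4 without mock_1dpi A or mock_1dpi B. Of 31 heart genes 0 rose and 5 fell (median log2 value −0.93, against 0.48 in control and −0.12 in particle embryos). In the heart list rises and falls numbered 0 and 3 without mock_3dpi A or mock_1dpi B and 0 and 4 without mock_3dpi B or mock_1dpi A. The atrial myosin light chain gene myl4 had 4.36 and 2.86 CPM in 3 dpi mock libraries A and B, against 17.7 and 15.7 at 1 dpi. For myl4 this was a change of −2.196 on the log2 scale (SE 0.28, adjusted p = 0.000522). Versican and hyaluronan synthase, which make the cushion matrix of the heart valves, are encoded by vcana, with 0.109 and 0.521 CPM in 3 dpi mock libraries A and B, against 4.9 and 3.54 at 1 dpi and a log2 value of −3.77, and by has2, with 0.109 and 0 CPM in 3 dpi mock libraries A and B, against 2.62 and 2.18 at 1 dpi and −5.15. For has2 the log2 value was −8.09 without mock_3dpi A. In that fit, too, the 3 dpi library had 0 reads and the value depends on the prior count. Of 80 skeletal muscle sarcomere genes 6 rose and 8 fell, with a median log2 value of 0.21. Among all genes 11.1% rose and 12.5% fell. The fast light chain gene mylpfa had 18600 and 12110 CPM in 3 dpi mock libraries A and B, against 5331 and 5519 at 1 dpi, a change of 1.501 on the log2 scale (SE 0.27, adjusted p = 0.0025), and the calcium store gene casq2 had 32.3 and 25.4 CPM in 3 dpi mock libraries A and B, against 136 and 143 at 1 dpi. For casq2 this was a change of −2.27 on the log2 scale (SE 0.35, adjusted p = 0.00133). The summed level of the muscle list was highest in mock_3dpi A, with 247702 CPM, and 148525 CPM in mock_3dpi B, against 104107 and 110352 CPM at 1 dpi. In the muscle list rises and falls numbered 2 and 3 without mock_3dpi A or mock_1dpi A, 12 and 4 without mock_3dpi B and 2 and 4 without mock_1dpi B, and its median turned to −0.13 without mock_3dpi A.

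**Figure D5:**
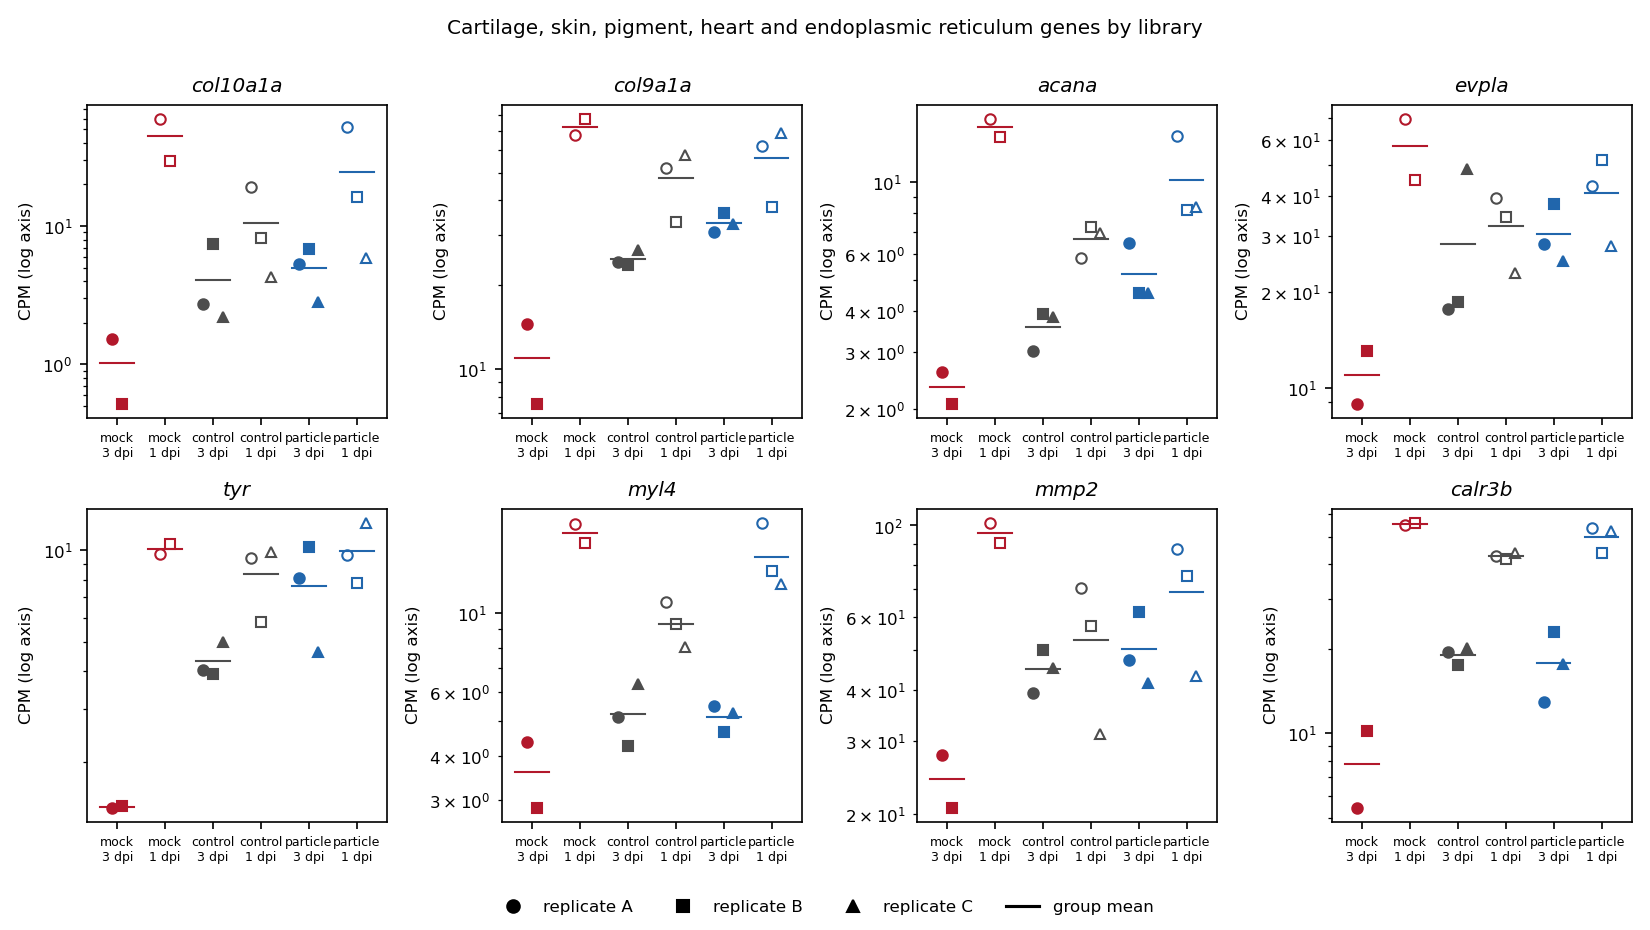
CPM on a log axis in every library for genes called lower at 3 dpi in mock embryos, of cartilage (col10a1a, col9a1a, acana), skin (evpla), pigment (tyr), heart (myl4), matrix (mmp2) and endoplasmic reticulum (calr3b), with 3 dpi (filled) left of 1 dpi (open) in each treatment; each point is a library and each line a group mean. For acana the mock libraries lie at 2.61 and 2.08 CPM at 3 dpi, against 15.6 and 13.8 CPM at 1 dpi.

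Nervous system genes moved in both directions, as did all genes, of which 11.1% rose and 12.5% fell. Of 57 synapse and transmitter genes 13 rose and 11 fell (median log2 value 0.06, against 0.08 in control and 0.19 in particle embryos). In the synapse list rises and falls numbered 7 and 5 without mock_3dpi A, 10 and 17 without mock_3dpi B, 5 and 6 without mock_1dpi A and 6 and 7 without mock_1dpi B. The vesicular glutamate transporter gene slc17a6a (ENSDARG00000001127, chromosome 25) had 5.01 CPM in mock_3dpi A and 9.63 in mock_3dpi B, against 42.3 in mock_1dpi A and 34.8 in mock_1dpi B, a change of −2.40 on the log2 scale (SE 0.37, adjusted p = 0.00132), and the calcium sensor gene syt2a had a log2 value of −1.75. The vesicle protein gene syn2b had 194 and 172 CPM in 3 dpi mock libraries A and B, against 81.9 and 87.4 at 1 dpi, a change of 1.11 on the log2 scale (SE 0.20, adjusted p = 0.00247), and the membrane fusion gene snap25a had 634 and 586 CPM in 3 dpi mock libraries A and B, against 322 and 332 at 1 dpi. For snap25a this was a change of 0.90 on the log2 scale (SE 0.16, adjusted p = 0.00278). With library totals 1 of these 57 rose and 15 fell, and the adjusted p of snap25a was 0.0707. Of 43 pituitary hormone and neuropeptide genes 17 rose and 5 fell (median log2 value 0.79, against 0.36 in control and 0.16 in particle embryos). In the neuropeptide list rises and falls numbered 9 and 2 without mock_3dpi A or mock_1dpi B, 17 and 4 without mock_3dpi B and 12 and 3 without mock_1dpi A. The gonadotropin-releasing hormone gene gnrh2 had 5.88 and 6.25 CPM in 3 dpi mock libraries A and B, against 0.691 and 0.376 at 1 dpi. For gnrh2 this was a change of 3.48 on the log2 scale (SE 0.45, adjusted p = 0.000551). The somatostatin gene sst1.1 had 15.24 and 12.1 CPM in 3 dpi mock libraries A and B, against 4.21 and 4.96 at 1 dpi, a change of 1.58 on the log2 scale (SE 0.22, adjusted p = 0.000886), and the appetite peptide gene cart4 and the vasoactive intestinal peptide gene vip had log2 values of 2.38 and 1.92. Of 25 myelin and oligodendrocyte genes 2 rose and 4 fell, with the myelin proteolipid gene plp1b at 50.8 and 42.6 CPM in 3 dpi mock libraries A and B, against 10.5 and 10.16 at 1 dpi, a change of 2.18 on the log2 scale (SE 0.39, adjusted p = 0.00256), and pmp22b at 71.6 and 69.1 CPM in 3 dpi mock libraries A and B, against 177 and 199 at 1 dpi. For pmp22b this was a change of −1.42 on the log2 scale (SE 0.21, adjusted p = 0.000986). The list median was 0.16. In the myelin list rises and falls numbered 1 and 1 without mock_3dpi A, mock_1dpi A or mock_1dpi B and 2 and 5 without mock_3dpi B.

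Neural progenitor and Notch genes had 3 rises and 2 falls among 61, and their median log2 value was 0.36 in mock embryos, against −0.51 in control and −0.49 in particle embryos. The Hes-family gene her2 had 13.6 and 14.1 CPM in 3 dpi mock libraries A and B, against 4.49 and 4.66 at 1 dpi, a change of 1.59 on the log2 scale (SE 0.29, adjusted p = 0.00291), and the Notch ligand gene jag1b had 10.9 and 9.24 CPM in 3 dpi mock libraries A and B, against 22 and 20.5 at 1 dpi. For jag1b this was a change of −1.08 on the log2 scale (SE 0.22, adjusted p = 0.0047). With library totals the list median was −0.08 in mock embryos. In the neural progenitor list rises and falls numbered 1 and 1 without mock_3dpi A, mock_1dpi A or mock_1dpi B and 3 and 3 without mock_3dpi B. Of 89 DNA replication and mitosis genes 1 rose and 1 fell (median log2 value −0.18, against −0.24 in control and −0.48 in particle embryos). By comparison, 11.1% of all genes rose and 12.5% fell. In the replication list rises and falls numbered 0 and 0 without mock_3dpi A or mock_1dpi A, 1 and 3 without mock_3dpi B and 0 and 1 without mock_1dpi B. The replication helicase gene mcm7 rose, with 247 and 147 CPM in 3 dpi mock libraries A and B, against 45.9 and 43.2 at 1 dpi, a change of 2.14 on the log2 scale (SE 0.49, adjusted p = 0.00806), while its means in controls were 86.5 ± 5.84 and 85 ± 44.6 CPM at 3 and 1 dpi (SD, n = 3 each). The centromere gene cenpf fell, with a change of −1.22 on the log2 scale (SE 0.31, adjusted p = 0.0144). The call of mcm7 ended without mock_3dpi A (adjusted p = 0.0803), without mock_1dpi A (adjusted p = 0.064) and without mock_1dpi B (adjusted p = 0.0629). The call of cenpf ended without mock_3dpi A (adjusted p = 0.146) and without mock_1dpi A (adjusted p = 0.134). Of 48 Hox cluster genes, which pattern the body axis, 0 rose and 3 fell (median log2 value −0.05, against −0.48 in control and −0.46 in particle embryos), all 3 from the posterior groups, with hoxc12a at 2.72 and 4.04 CPM in 3 dpi mock libraries A and B, against 13.7 and 10.6 at 1 dpi. For hoxc12a this was a change of −1.86 on the log2 scale (SE 0.38, adjusted p = 0.00458). In the Hox list rises and falls numbered 0 and 2 without mock_3dpi A, mock_1dpi A or mock_1dpi B and 0 and 1 without mock_3dpi B, and its median turned to 0.04 without mock_3dpi B. The call of hoxc12a ended without mock_3dpi A (adjusted p = 0.0615).

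In the eye, lens genes had more calls than the lists of the retina with all libraries in the fit. This order did not hold with library totals or in every fit without 1 mock library. Of all genes 11.1% rose and 12.5% fell. Of 61 lens crystallin and lens genes 17 rose and 1 fell (median log2 value 1.305, against −0.22 in control and −0.04 in particle embryos). When library totals replaced TMM factors, 4 of the 61 rose and 3 fell, with a median of 0.815. No lens gene was called in the edgeR tests of a difference in change between groups. The gamma crystallin gene crygm2d7 had 734 and 297 CPM in 3 dpi mock libraries A and B, against 97.8 and 164 at 1 dpi. For crygm2d7 this was a change of 1.98 on the log2 scale (SE 0.51, adjusted p = 0.0152). The crygm2d genes are near-identical copies, the treatment of reads shared between them is not given in the sources used here, and their single values are uncertain. The count of rises and the median of the list include such copies, so its rises need not be separate changes. The lens markers cryaa and cryba2a were not called, with log2 values of 1.17 (adjusted p = 0.168) and 0.86 (adjusted p = 0.243). The summed level of the list was 41291 CPM in mock_3dpi A and 19358 CPM in mock_3dpi B, against 7153 and 12615 CPM in mock_1dpi A and B. In the lens list rises and falls numbered 0 and 0 without mock_3dpi A, 25 and 1 without mock_3dpi B, 0 and 1 without mock_1dpi A and 3 and 0 without mock_1dpi B. The call of crygm2d7 ended without mock_3dpi A (adjusted p = 0.2) and without mock_1dpi A (adjusted p = 0.135). For crygm2d7 the log2 value was 1.17 without mock_3dpi A. Of 69 phototransduction and visual cycle genes 7 rose and 5 fell (median log2 value 0.42, against 0.44 in control and 0.60 in particle embryos). In the phototransduction list rises and falls numbered 1 and 2 without mock_3dpi A or mock_1dpi B, 6 and 4 without mock_3dpi B and 2 and 1 without mock_1dpi A. The cone phosphodiesterase subunit gene pde6h (ENSDARG00000102558, chromosome 6) had 919 CPM in mock_3dpi A and 568 in mock_3dpi B, against 39 in mock_1dpi A and 53.7 in mock_1dpi B, a change of 4.003 on the log2 scale (SE 0.70, adjusted p = 0.00234), and rose in control and particle embryos as well, by 2.61 and 2.64. With library totals 1 of the 69 rose and 9 fell. Of 21 opsin genes 2 rose and 0 fell, with a median of 0.13, among them the pineal opsin gene parapinopsinb with 82.5 and 91.1 CPM in 3 dpi mock libraries A and B, against 28 and 27.7 at 1 dpi. For parapinopsinb this was a change of 1.64 on the log2 scale (SE 0.19, adjusted p = 0.000367). In the opsin list rises and falls numbered 1 and 0 without mock_3dpi A, mock_3dpi B, mock_1dpi A or mock_1dpi B, and its median turned to −0.22 without mock_3dpi A. The rod opsin gene rho had 3738 and 1836 CPM in 3 dpi mock libraries A and B, against 1300 and 790.1 at 1 dpi, with a log2 value of 1.41 (adjusted p = 0.21). Of 32 ear and hair cell genes 2 rose and 6 fell (median log2 value −0.27, against 0.06 in control and 0.50 in particle embryos), with the otolith matrix gene otomp at 0.218 and 1.69 CPM in 3 dpi mock libraries A and B, against 12.9 and 8.73 at 1 dpi. For otomp this was a change of −3.54 on the log2 scale (SE 0.67, adjusted p = 0.00327). In the ear list rises and falls numbered 0 and 2 without mock_3dpi A or mock_1dpi A, 1 and 2 without mock_3dpi B and 0 and 3 without mock_1dpi B. For otomp the log2 value was −5.59 without mock_3dpi B.

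Blood and immune genes moved in both directions, as did all genes, of which 11.1% rose and 12.5% fell. Of 14 globin genes, which include the tissue globins, 1 rose and 2 fell (median log2 value −1.14, against −0.72 in control and 0.36 in particle embryos). All called members were tissue globins. The neuroglobin gene ngb rose by 0.82 on the log2 scale, while the cytoglobin gene cygb1 (−0.83) and the myoglobin gene mb fell. No red cell globin of the list was called in this fit. In the globin list rises and falls numbered 0 and 1 without mock_3dpi A, mock_3dpi B or mock_1dpi A and 0 and 0 without mock_1dpi B. The myoglobin gene mb had 22.2 and 10.4 CPM in 3 dpi mock libraries A and B, against 52.4 and 73.5 at 1 dpi. For mb this was a change of −1.94 on the log2 scale (SE 0.44, adjusted p = 0.00814). The embryonic beta globin gene hbbe1.1, one of several near-identical copies and so uncertain, had 316 and 227 CPM in 3 dpi mock libraries A and B, against 642 and 612 at 1 dpi, with a log2 value of −1.21 (adjusted p = 0.114). The call of mb ended without mock_1dpi B (adjusted p = 0.0569). Of 37 red cell heme, membrane and iron genes 5 rose and 7 fell (median log2 value −0.34, against 0.03 in control and 0.18 in particle embryos), with the transferrin receptor gene tfr1a at 1.2 and 1.3 CPM in 3 dpi mock libraries A and B, against 8.01 and 5.34 at 1 dpi. For tfr1a this was a change of −2.41 on the log2 scale (SE 0.45, adjusted p = 0.00303). In the red cell list rises and falls numbered 0 and 2 without mock_3dpi A or mock_1dpi A, 4 and 7 without mock_3dpi B and 0 and 1 without mock_1dpi B. Of 22 neutrophil genes 0 rose and 3 fell (median log2 value −0.22, against 0.24 in control and 0.15 in particle embryos). In the neutrophil list rises and falls numbered 0 and 0 without mock_3dpi A, mock_1dpi A or mock_1dpi B and 1 and 2 without mock_3dpi B. Of 39 macrophage and phagocyte genes 1 rose and 4 fell (median log2 value 0.18, against 0.28 in control and 0.59 in particle embryos), among them the perforin-like gene mpeg1.1 with 0.98 and 1.56 CPM in 3 dpi mock libraries A and B, against 3.66 and 4.36 at 1 dpi. For mpeg1.1 this was a change of −1.66 on the log2 scale (SE 0.50, adjusted p = 0.0293). In the macrophage list rises and falls numbered 0 and 1 without mock_3dpi A, mock_1dpi A or mock_1dpi B and 1 and 3 without mock_3dpi B, and its median turned to −0.05 without mock_3dpi A. The call of mpeg1.1 ended without mock_3dpi A (adjusted p = 0.21), without mock_1dpi A (adjusted p = 0.0841) and without mock_1dpi B (adjusted p = 0.117). Of 37 inflammatory cytokine and acute response genes 8 rose and 1 fell (median log2 value 0.59, against 0.41 in control and 0.30 in particle embryos). The AP-1 subunit gene junba had 45 and 36.6 CPM in 3 dpi mock libraries A and B, against 9.19 and 10.16 at 1 dpi. For junba this was a change of 2.08 on the log2 scale (SE 0.35, adjusted p = 0.0019). The acute phase transcription factor gene cebpd had 264 and 218 CPM in 3 dpi mock libraries A and B, against 31.1 and 27.8 at 1 dpi, a change of 3.03 on the log2 scale (SE 0.62, adjusted p = 0.005), and the NF-kB inhibitor gene nfkbiab had 96.1 and 98.7 CPM in 3 dpi mock libraries A and B, against 33.1 and 39 at 1 dpi. For nfkbiab this was a change of 1.43 on the log2 scale (SE 0.28, adjusted p = 0.00415). For cebpd the change was also called in control embryos, with 2.62 (adjusted p = 0.025). The call of nfkbiab ended without mock_1dpi A (adjusted p = 0.0502). In the cytokine list rises and falls numbered 7 and 0 without mock_3dpi A, 3 and 2 without mock_3dpi B, 2 and 0 without mock_1dpi A and 3 and 0 without mock_1dpi B. Of 23 thymus and lymphocyte genes 2 rose and 1 fell, with a median of −0.11. One of these rises was of cd3eap, which encodes an RNA polymerase I subunit and no lymphocyte protein, with 21.7 and 12.1 CPM in 3 dpi mock libraries A and B, against 5.04 and 7.9 at 1 dpi. For cd3eap this was a change of 1.39 on the log2 scale (SE 0.35, adjusted p = 0.0131). The call of cd3eap ended without mock_3dpi A (adjusted p = 0.168) and without mock_1dpi A (adjusted p = 0.129). For cd3eap the log2 value was 0.90 without mock_3dpi A. In the lymphocyte list rises and falls numbered 0 and 0 without mock_3dpi A or mock_1dpi A and 1 and 0 without mock_3dpi B or mock_1dpi B, and its median turned to 0.09 without mock_1dpi A.

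Of 57 heat shock and unfolded protein genes 4 rose and 21 fell (median log2 value −0.51, against −0.29 in control and −0.36 in particle embryos). Among all genes 11.1% rose and 12.5% fell. The falls with the smallest p were of folding proteins of the endoplasmic reticulum. The calreticulin gene calr3b (ENSDARG00000102808, chromosome 2) had 5.44 CPM in mock_3dpi A and 10.15 in mock_3dpi B, against 55 in mock_1dpi A and 56 in mock_1dpi B. For calr3b this was a change of −2.84 on the log2 scale (SE 0.28, adjusted p = 0.000125). The collagen chaperone gene serpinh1a had 7.4 and 7.55 CPM in 3 dpi mock libraries A and B, against 30.4 and 29 at 1 dpi, a change of −1.99 on the log2 scale (SE 0.30, adjusted p = 0.00112), and the chaperone gene hyou1 had a log2 value of −1.59. The heat shock factor gene hsf2 rose, with 72.9 and 63.8 CPM in 3 dpi mock libraries A and B, against 16.5 and 16.9 at 1 dpi. For hsf2 this was a change of 2.04 on the log2 scale (SE 0.29, adjusted p = 0.000986). In particle embryos calr3b and hyou1 fell as well, by log2 values of −1.49 and −0.95, and in control embryos calr3b fell, by −1.16. In the heat shock list rises and falls numbered 2 and 6 without mock_3dpi A, 5 and 13 without mock_3dpi B, 3 and 6 without mock_1dpi A and 2 and 4 without mock_1dpi B. Of 42 p53 target and apoptosis genes 10 rose and 3 fell (median log2 value −0.05, against 0.08 in control and 0.07 in particle embryos). The cell death activator gene bbc3 (Puma) had 24.5 and 22 CPM in 3 dpi mock libraries A and B, against 6.35 and 7.15 at 1 dpi. For bbc3 this was a change of 1.78 on the log2 scale (SE 0.22, adjusted p = 0.000474). The 3 falls were caspase genes, casp3b with 3.05 and 3.9 CPM in 3 dpi mock libraries A and B, against 33.6 and 20.2 at 1 dpi, a change of −2.95 on the log2 scale (SE 0.41, adjusted p = 0.000865), and casp6 and caspb with log2 values of −2.67 and −2.21. In the p53 list rises and falls numbered 3 and 3 without mock_3dpi A, 10 and 6 without mock_3dpi B, 4 and 3 without mock_1dpi A and 2 and 3 without mock_1dpi B, and its median turned to 0.03 without mock_1dpi B. Of 46 oxidative stress genes 6 rose and 4 fell, with a median of 0.26, and the ferritin gene fth1b had 37.9 and 38.3 CPM in 3 dpi mock libraries A and B, against 15.4 and 16.7 at 1 dpi. For fth1b this was a change of 1.25 on the log2 scale (SE 0.18, adjusted p = 0.000962). In the oxidative stress list rises and falls numbered 2 and 1 without mock_3dpi A, 6 and 2 without mock_3dpi B, 1 and 0 without mock_1dpi A and 2 and 0 without mock_1dpi B, and its median turned to −0.08 without mock_3dpi A.

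Of 60 lysosome genes 4 rose and 10 fell (median log2 value −0.10, against 0.17 in control and 0.15 in particle embryos), with the proton pump subunit gene atp6ap1b at 9.47 and 8.98 CPM in 3 dpi mock libraries A and B, against 24.5 and 23.3 at 1 dpi, a change of −1.37 on the log2 scale (SE 0.20, adjusted p = 0.00093), and the lysosomal membrane gene scarb2 at 18.1 and 23.9 CPM in 3 dpi mock libraries A and B, against 62.8 and 70.9 at 1 dpi. For scarb2 this was a change of −1.67 on the log2 scale (SE 0.25, adjusted p = 0.00111). Rises made up 11.1% and falls 12.5% of all genes. In the lysosome list rises and falls numbered 0 and 5 without mock_3dpi A, 11 and 10 without mock_3dpi B, 0 and 3 without mock_1dpi A and 0 and 6 without mock_1dpi B, and its median turned to 0.08 without mock_3dpi B. Of 37 cholesterol synthesis genes 2 rose and 5 fell (median log2 value −0.73, against 0.20 in control and 0.09 in particle embryos). In the cholesterol list rises and falls numbered 0 and 1 without mock_3dpi A or mock_1dpi B, 2 and 4 without mock_3dpi B and 1 and 0 without mock_1dpi A. The regulator gene srebf1 had 1.31 and 8.07 CPM in 3 dpi mock libraries A and B, against 15.9 and 17 at 1 dpi. For srebf1 this was a change of −1.84 on the log2 scale (SE 0.53, adjusted p = 0.0244). The call of srebf1 ended without mock_3dpi A (adjusted p = 0.133), without mock_1dpi A (adjusted p = 0.0856) and without mock_1dpi B (adjusted p = 0.0869). For srebf1 the log2 value was −1.04 without mock_3dpi A and −3.66 without mock_3dpi B. Of 68 aryl hydrocarbon receptor and drug metabolism genes 6 rose and 7 fell (median log2 value −0.04, against 0.63 in control and 0.46 in particle embryos), with the cytochrome P450 gene cyp2ad3 at 171 and 90.9 CPM in 3 dpi mock libraries A and B, against 33.3 and 27.7 at 1 dpi. For cyp2ad3 this was a change of 2.103 on the log2 scale (SE 0.37, adjusted p = 0.0025). In the drug metabolism list rises and falls numbered 3 and 0 without mock_3dpi A, 6 and 5 without mock_3dpi B, 2 and 1 without mock_1dpi A and 1 and 0 without mock_1dpi B, and its median turned to 0.02 without mock_3dpi A. This gene rose in control and particle embryos too, by 1.55 and 2.00. Of 46 kidney and ionocyte genes 2 rose and 2 fell (median log2 value −0.27, against 0.69 in control and 0.53 in particle embryos). In the kidney list rises and falls numbered 1 and 0 without mock_3dpi A, 2 and 2 without mock_3dpi B, 1 and 1 without mock_1dpi A and 2 and 1 without mock_1dpi B. The podocyte transcription factor gene wt1b had 118 and 79 CPM in 3 dpi mock libraries A and B, against 42 and 45.8 at 1 dpi, a change of 1.16 on the log2 scale (SE 0.19, adjusted p = 0.00187), and the carbonic anhydrase gene ca2 had 2.61 and 6.38 CPM in 3 dpi mock libraries A and B, against 33.3 and 29 at 1 dpi. For ca2 this was a change of −2.81 on the log2 scale (SE 0.66, adjusted p = 0.00968). The call of ca2 ended without mock_3dpi A (adjusted p = 0.116).

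Whether the change over time in mock embryos differed from that of the other groups was tested in the same model. For mock minus control 0 of 23623 genes passed (0%), with 5528 at an unadjusted p under 0.05 and a smallest adjusted p of 0.0516, limma-voom called 0, and DESeq2 called 670 higher and 855 lower. The 5 genes with the smallest p shared that adjusted p of 0.0516, as did col11a1b and atp6ap1b. The ribonuclease family gene rnaseka had 6.86 and 5.73 CPM in 3 dpi mock libraries A and B, against 13.8 and 15 at 1 dpi, and a difference in log2 values of −1.80 (SE 0.26). The kinase adaptor gene tab1 had 36.4 and 32.1 CPM in 3 dpi mock libraries A and B, against 11.5 and 11 at 1 dpi, and a difference of 1.52 (SE 0.24). The cargo receptor gene surf4l had 1.74 and 2.21 CPM in 3 dpi mock libraries A and B, against 9.81 and 9.78 at 1 dpi, and −1.93 (SE 0.30). The small GTPase gene kras had 3.16 and 4.04 CPM in 3 dpi mock libraries A and B, against 23.8 and 21.1 at 1 dpi, and −1.94 (SE 0.31). For lmln the difference was −2.59 (SE 0.41). Without mock_3dpi B the adjusted p of these 5 lay between 0.00427 and 0.00736, and 841 genes were higher and 1566 lower. With only the A and B libraries 52 genes were higher and 169 lower, and without mock_3dpi A as well 2 and 1.

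For mock minus particle 1 of 23623 genes passed (0.00423%), with 5667 at an unadjusted p under 0.05. This was EGR4, with a difference of 3.38 (SE 0.40, adjusted p = 0.0171). Limma-voom called 0 genes, giving EGR4 an adjusted p of 0.0691, and DESeq2 called 699 higher and 1020 lower. The call of EGR4 ended without mock_3dpi A (adjusted p = 0.132), without mock_1dpi A (adjusted p = 0.214), without mock_1dpi B (adjusted p = 0.17), without particle_1dpi B (adjusted p = 0.0677) and without particle_3dpi A (adjusted p = 0.0725). The next genes all had an adjusted p of 0.0518, namely kras with a difference of −2.16, the malectin gene mlec, for a sugar-binding protein of the endoplasmic reticulum, with −2.62, surf4l with −1.85 and the arrestin-domain gene arrdc3b with 1.82. For mlec the libraries held 0.98 and 0.911 CPM in 3 dpi mock libraries A and B, against 8.91 and 10.3 at 1 dpi, and for arrdc3b 201 and 161 CPM in 3 dpi mock libraries A and B, against 46.1 and 64.3 at 1 dpi. With only the A and B libraries 1051 genes were higher and 1442 lower, and without mock_3dpi A as well 572 and 906. Without single libraries the count of genes higher was 942 without mock_3dpi B, 262 without control_1dpi C and 208 without particle_3dpi C, and that of genes lower was 1790, 506 and 412.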

How the data were processed

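Whole-animal RNA of zebrafish was measured in 16 libraries, of which the 4 mock libraries are described here. The deposited tables hold read counts per gene, here treated in the unit of expected counts. All values on gene lines were whole numbers, so that rounding to whole counts changed no value, and only a size factor below the genes is a decimal. That line and a blank one, 2 per table, were left out. Per the submitters' processing notes the authors used Bowtie2, SAMtools and DESeq with the build GRCz10. Not given in the sources used here are the read counter, the annotation release, whether strand was used and how shared reads were counted. The titles give the groups. The headers of the particle C libraries read another bead size than the labels, the header of particle_1dpi B names A, and control_1dpi C carries replica 1 in its characteristics. Titles were followed in each case.

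Counts were analysed with edgeR 4.0.16 in R 4.3.3. Genes passed filterByExpr at min.count 10 and min.total.count 15, which kept 23623 of 31388. TMM scaling, a quasi-likelihood fit of 6 group means, two-sided tests and Benjamini-Hochberg adjustment over all genes tested were used, with a threshold of 0.05. SE values come from the F statistic. Differences of time changes were contrasts of the same fit. Alternatives were RLE scaling, TMM without ribosomal protein and mitochondrial genome genes, library totals, DESeq2 1.42.0, limma-voom (limma 3.58.1), no low-count filter, a term for the replicate letter, fits on fewer libraries and fits without 1 library at a time. Where this left 1 library in a group, it was taken to vary as the other groups do. Figures were drawn with matplotlib 3.10.9 in Python 3.11.15.

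The comparison and the 46 gene lists were chosen with earlier results of these data known. Members were matched by symbol or through synonym tables, 91 entries of the lists had no match, and no set test was run. Named genes are the 10 genes with the greatest rise and the 10 with the greatest fall, of those called with at least 5 CPM in the higher group and no overlap between mock groups, up to 4 called members per list in order of p, its 2 most abundant members, and the 5 smallest p of each test of a difference. Not every gene that the rule allows is printed. Between libraries of one mock group the chi-square per degree of freedom was 28.6 at 3 dpi and 6.02 at 1 dpi, so neither repeats the other.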

Additional observations from a re-analysis of the deposited data

Results flagged for a closer look

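The change of EGR4 differed between mock and particle embryos by the test of the difference itself. The log2 value of 3 dpi over 1 dpi was 5.49 in mock embryos (SE 0.35) and 2.11 in particle embryos, a difference of 3.38 (SE 0.40, adjusted p = 0.0171), and in control embryos it was 3.31. The level was 109 and 73.8 CPM in 3 dpi mock libraries A and B, against 1.73 and 2.33 CPM at 1 dpi. In particle embryos it was 39.5 CPM on average at 3 dpi, against 9.14 CPM at 1 dpi. The call ended without mock_3dpi A, mock_1dpi A or mock_1dpi B, with adjusted p values of 0.132, 0.214 and 0.17. It also ended without particle_3dpi A and particle_1dpi B, with 0.0725 and 0.0677, and with only the mock and particle libraries in the fit, with 0.085.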

How the results depend on the processing

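The 2627 rises and 2951 falls in mock embryos lay within 1.5 times these counts under RLE scaling, TMM without ribosomal protein and mitochondrial genome genes, DESeq2, limma-voom, no filter and only the mock libraries. With library totals the counts were 835 and 5835, by construction without the correction for reads taken up by few abundant genes, and with only the A and B libraries 4122 genes rose. The 2 mock libraries a side, of 8679739 to 13372934 reads, limit all counts. Leaving out 1 of the 16 libraries gave 731 to 3240 rises and 944 to 3366 falls. For mock minus control the counts higher and lower were 0 and 0, and 14 and 612 with library totals, 670 and 855 with DESeq2, 52 and 169 with only the A and B libraries, 2 and 1 when mock_3dpi A was also left out, which was added with the values in view, and 0 to 841 and 0 to 1566 without 1 library. For mock minus particle they were 1 and 0, and 21 and 522 with library totals, 699 and 1020 with DESeq2, 0 higher with limma-voom and with only the mock and particle libraries, 1051 and 1442 with only the A and B libraries, 572 and 906 when mock_3dpi A was also left out, and 0 to 942 and 0 to 1790 without 1 library. The cause of these differences was not tested.

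By the check used, the replicate letters did not pair the libraries in every group. Deviations from the group means correlated between libraries of the same letter at 3 and 1 dpi at −0.04 in mock, −0.01 to 0.32 in control and 0.11 to 0.54 in particle embryos. In particle embryos all 3 pairs thus lay over 0.1, and 2 of the 3 libraries of 3 dpi correlated best with their own letter, against 1 of 3 in control embryos. With the letter as a block 3728 genes rose and 3872 fell in mock embryos, 866 were higher and 1282 lower for mock minus control, and 994 and 1518 for mock minus particle. With library totals the medians of exocrine pancreas, islet hormone, yolk lipid, opsin, phototransduction, myelin, synapse, macrophage, skeletal muscle, neural progenitor, fasting, oxidative stress and proteasome lists were below 0. In that fit rises and falls numbered 13 and 9 in the clock list, 11 and 7 in the neuropeptide list and 7 and 7 in the fasting list. They numbered 4 and 11 in the p53 list, 2 and 13 in the oxidative stress list and 835 and 5835 over all genes. Of the named genes apoa1b, which was not called, changed sign without mock_3dpi B, where its log2 value of 0.75 became −0.36, the lowest of a range up to 1.35 without mock_3dpi A. With all libraries kept, calls of some named genes also ended in single alternatives. With library totals the adjusted p was 0.0566 for abca1a, 0.0766 for pros1 and 0.0954 for rpsa. With limma-voom it was 0.0746 for igfbp5a and 0.113 for klhl38b, and with only the mock libraries 0.0799 for rpsa and 0.1 for srebf1. Some named genes given above as not called were called in single alternatives. Their adjusted p with only the mock libraries was 0.0403 for fabp10a, 0.0471 for ela2 and 0.024 for hbbe1.1. With only the A and B libraries it was 0.0034 for hbbe1.1, 0.00726 for rho and 0.0444 for rbp4. For hbbe1.1 it was also 0.0291 with library totals and 0.0228 with the letter as a block. Log2 values over 1.5 times smaller with library totals were those of abca1a, cd3eap, cox7c, ddx47, fth1b, gnl3l, mt-co2, mt-co3, ndufa6, pros1, rplp0, rpsa, snap25a, syn2b and wt1b, all rises, at 0.45 (snap25a) to 0.96 (ddx47).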
